A study of Mus musculus with 12 samples.

Results

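T cells that carried 2 different productive T cell receptor alpha chains and 1 beta chain were examined in mouse tumours. They were all cell barcodes with exactly 2 distinct TRA chains (differing in V segment, J segment or CDR3 bases) and exactly 1 TRB chain: 2493 of 23219 barcodes in 6 receptor libraries. They are called dual alpha cells below, and were set against the 16622 barcodes with 1 TRA and 1 TRB chain, called single alpha cells. The cells were chosen by the number of chains on their barcode, which depends on the chains' UMI counts, so the presence of a second chain and its relation to depth are described without a test. Treatment and clone size were not used to choose the cells, and shares are tested over libraries only by these.

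The mice were C57BL/6J, 6 to 8 weeks old, and all carried subcutaneous tumours of a line derived from MC38, a mouse colon carcinoma. The labels call that line a p53 knockout and write its p53 substitution in 2 conflicting ways. Every mouse received 300000 tumour cells and, on day 10, when tumours measured 50 to 100 mm3, a single intratumoral dose of 40 µg of a preparation the labels call LNP-Ctrl in 3 libraries and LNP-P20-mAb in the other 3. About 10000 viable CD45+ leukocytes per sample were sorted, and TCR transcripts were enriched from 10x Genomics 5′ libraries. The labels do not say whether a library is 1 mouse or a pool, and do not name the time of harvest.

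The TCR alpha locus is assembled in the thymus by joining a TRAV to a TRAJ segment, on both chromosomes and often repeatedly. Later joins use V segments farther upstream and J segments farther downstream than the ones they replace. Unlike the beta locus, the alpha locus is not shut off after 1 productive join, so a T cell can keep a productive alpha chain from each allele, each able to pair with the same beta chain. TRAJ numbers fall with distance from the V segments, so a high number is a J segment near the V cluster.

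The alpha chains of the clone with most dual alpha cells are printed here for LNP-Ctrl 1 and for LNP-P20-mAb 1, 2 and 3. The same pair of alpha chains recurring beside 1 beta chain in many cells is the pattern that the clone results rest on. Each is the CDR3 from its first cysteine codon, in the bases that the files list. Capitals mark the junction bases that matched neither the consensus V end nor the consensus J start of chains with the same segments in these files.
LNP-Ctrl 1, TRBV10 clone, TRAV7-3 with TRAJ24: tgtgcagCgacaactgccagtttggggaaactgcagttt
LNP-Ctrl 1, TRBV10 clone, TRAV14-2 with TRAJ27: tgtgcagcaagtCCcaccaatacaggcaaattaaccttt
LNP-P20-mAb 1 and 2, TRBV12-1 clone, TRAV12-2 with TRAJ32: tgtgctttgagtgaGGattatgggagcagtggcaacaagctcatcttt
LNP-P20-mAb 1 and 2, TRBV12-1 clone, TRAV15-1-DV6-1 with TRAJ26: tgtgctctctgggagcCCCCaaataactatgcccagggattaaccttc
LNP-P20-mAb 3, TRBV3 clone, TRAV7D-2 with TRAJ17: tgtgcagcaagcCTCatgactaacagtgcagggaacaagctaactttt
LNP-P20-mAb 3, TRBV3 clone, TRAV4-2 with TRAJ35: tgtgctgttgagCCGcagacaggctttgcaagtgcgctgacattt

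A pair of further clones is shown because both of their alpha chains used the same J segment, joined to different V segments with different junctions. The lower-case stretch at the right of each line is the J-encoded end.
LNP-P20-mAb 1 and 2, TRBV2 clone, TRAV9N-3 with TRAJ7: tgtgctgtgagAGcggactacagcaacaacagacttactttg
LNP-P20-mAb 1 and 2, TRBV2 clone, TRAV6D-6 with TRAJ7: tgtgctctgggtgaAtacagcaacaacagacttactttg
LNP-P20-mAb 1 and 2, TRBV13-3 clone, TRAV10N with TRAJ15: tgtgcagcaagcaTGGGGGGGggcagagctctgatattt
LNP-P20-mAb 1 and 2, TRBV13-3 clone, TRAV4-2 with TRAJ15: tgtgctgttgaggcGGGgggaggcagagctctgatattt

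The 6 libraries held 48792 chains, all TRA or TRB and none from gamma, delta or immunoglobulin loci, with 5050 to 9982 chains and 85835 to 145847 UMIs per library. Pairs of libraries shared 11 to 29 barcodes, of which 1, in LNP-P20-mAb 1 and 2, carried the same receptor. LNP-P20-mAb 1 and 2 also shared clones, as described below, so they may not be independent samples, and the tests within libraries were repeated with them averaged into 1. Barcodes with 2 TRB chains, which can mark 2 cells in 1 droplet, made up 5.22% to 6.20% of barcodes in the LNP-Ctrl libraries and 12.8%, 8.63% and 10.0% in LNP-P20-mAb 1, 2 and 3. They are not among the dual alpha cells, and droplets whose cells share a beta chain, or of which 1 beta chain was missed, cannot be recognised. The part of such droplets in the results was not tested beyond the 266 barcodes with 2 TRA and 2 TRB chains described below.

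Dual alpha cells made up 366 of 3333 cells (10.98%; exact binomial 95% interval 9.94% to 12.1%) in LNP-Ctrl 1. LNP-Ctrl 2 had 500 of 3923 (12.7%; 11.7% to 13.8%) and LNP-Ctrl 3 had 530 of 3737 (14.2%; 13.1% to 15.3%). With LNP-P20-mAb the shares were 264 of 3263 (8.09%; 7.18% to 9.08%), 155 of 2016 (7.69%; 6.56% to 8.94%) and 678 of 2843 (23.8%; 22.3% to 25.5%). Intervals cover counting error only. The groups overlapped: LNP-P20-mAb held both the lowest shares and the highest. The means were 12.6% ± 1.60 (SD, n = 3) with LNP-Ctrl and 13.2% ± 9.22 (SD, n = 3) with LNP-P20-mAb, and the exact two-sided permutation test over libraries gave p = 1 (the smallest p for 3 against 3 is 0.1).

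Counting each clonotype once removed most of that spread. A clonotype here is the set of cells of a library with the same beta chain and a shared alpha chain. It was counted as dual if at least 1 of its cells was, so larger clonotypes had more chances to be counted. In LNP-P20-mAb 1, for example, a TRBV13-1 clonotype with 1 dual alpha cell among 29 counts as dual. By clonotype the dual share was 13.6%, 13.6% and 14.5% in LNP-Ctrl 1 to 3, and 11.7%, 13.0% and 13.4% in LNP-P20-mAb 1 to 3. The 3 LNP-P20-mAb values lay below all 3 LNP-Ctrl values, with means of 12.7% ± 0.881 and 13.9% ± 0.558 (SD, n = 3; exact permutation p = 0.1, the smallest possible, and 0.7 after Benjamini-Hochberg adjustment over 7 comparisons by treatment). Leaving out cells of clonotypes of 20 or more cells gave 13.0%, 14.4% and 14.5% against 16.1%, 11.2% and 12.9% of cells (exact permutation p = 0.7), an alternative chosen after seeing the data.

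**Figure D1:**
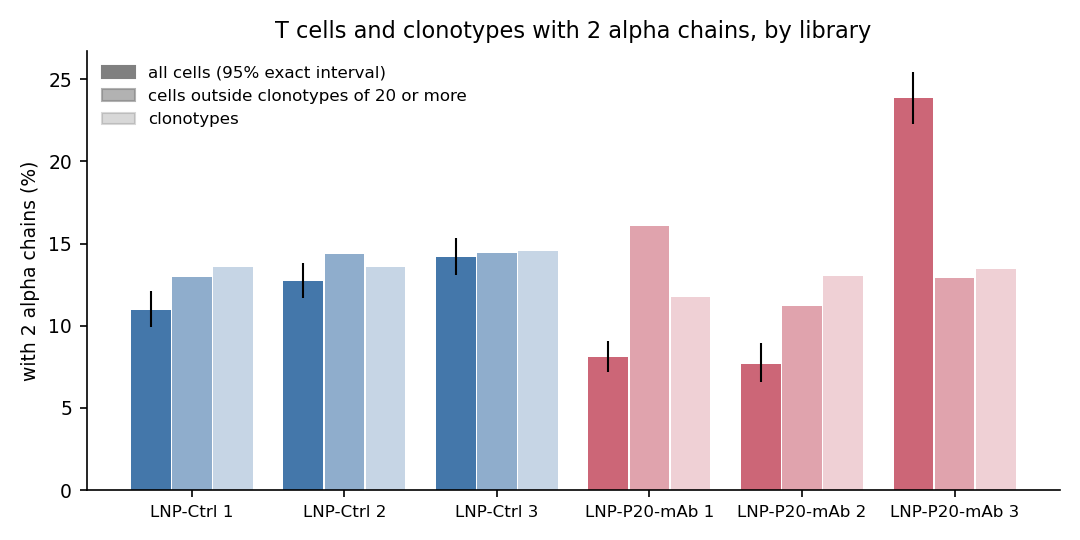
Share with 2 alpha chains (%, y axis) in each of the 6 libraries (x axis; blue LNP-Ctrl, red LNP-P20-mAb), over all cells with exact 95% binomial intervals (darkest bars), over cells outside clonotypes of 20 or more cells (middle) and over clonotypes (lightest). LNP-P20-mAb 3 stands at 23.8% of cells but 13.4% of clonotypes.

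A second alpha chain was found more often where more alpha UMIs were counted, which is partly built into the rule. Among cells with 1 to 4 TRA UMIs, 0.938% to 2.22% were dual alpha cells, by library, and among cells with 20 or more it was 23.1% to 58.4%. Dual alpha cells had median TRA totals of 20, 12 and 11 UMIs in LNP-Ctrl 1 to 3 against 9, 6 and 5 in single alpha cells, and 14, 16 and 17 against 8, 8 and 8 in LNP-P20-mAb 1 to 3. Their TRB medians were 19, 14 and 16 against 21, 14 and 14 in LNP-Ctrl, and 24, 24 and 19.5 against 18, 20 and 17 in LNP-P20-mAb. The alpha total was thus higher in all 6 libraries, while the beta total was lower in 1, equal in 1 and higher in 4. With each cell reduced to 5 TRA UMIs, and shallower cells left out, the expected share showing both chains was 11.8%, 17.6% and 19.3% in LNP-Ctrl and 9.18%, 8.28% and 26.1% in LNP-P20-mAb (exact permutation p = 0.8).

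The 2 alpha chains of a cell were counted at similar depth. The chain with more UMIs had a median of 9 and the other a median of 5, and the median ratio was 1.67-fold over the 2493 cells. By library the median ratio was 1.5-, 1.67- and 1.6-fold in LNP-Ctrl 1 to 3 and 1.6-, 1.6- and 1.75-fold in LNP-P20-mAb 1 to 3. On the log2 scale the medians averaged 0.67 ± 0.08 with LNP-Ctrl and 0.72 ± 0.07 with LNP-P20-mAb (SD, n = 3; exact permutation p = 0.6). In 10.2% of cells the counts tied, and in 4.65% they differed 4-fold or more. The lower chain had 3 or more UMIs in 86.6% of cells and a single UMI in 52 cells, the shallowest that the rule admits. No pair consisted of near-identical copies of 1 chain, and 1 of the 2493 cells had 2 chains with the same CDR3 residues.

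The J segments of the 2 alpha chains lay close together. Over 1461 distinct pairs (the same beta and alpha chains counted once per library), the TRAJ numbers of the 2 chains differed by a mean of 8.18, 8.73 and 8.56 in LNP-Ctrl 1 to 3 and 8.51, 7.25 and 9.14 in LNP-P20-mAb 1 to 3. Chains from different dual alpha clonotypes of the same library differed by 16.4, 16.4 and 16.1, and by 17.0, 15.98 and 15.7. All 6 values within cells lay below all 6 values between cells. The difference was -7.88 ± 0.790 J positions (SD, n = 6 libraries; exact sign-flip permutation p = 0.03125, the smallest that 6 libraries allow, and 0.133 after Benjamini-Hochberg adjustment over 17 tests within libraries). It did not differ detectably between treatments (exact permutation p = 0.9, n = 3 each). The rule uses neither position.

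The J segment of 1 chain went with a narrow range of partners. Each TRAJ number was placed in a stretch near the V segments (TRAJ40 to TRAJ58), a middle one (TRAJ20 to TRAJ39) or a far one (TRAJ2 to TRAJ19), which held 25.2%, 48.4% and 26.5% of the chains of dual pairs. When a chain used a near J segment, 65.2% of partners were also near and 2.04% were far. When it used a far segment, 57.2% of partners were far and 1.94% near. A near chain paired with a far one was thus the rarest arrangement in the pooled pairs, and 2 libraries had under 1% or none of it among near chains: LNP-Ctrl 1 with 0.769% and LNP-P20-mAb 2 with 0%.

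**Figure D2:**
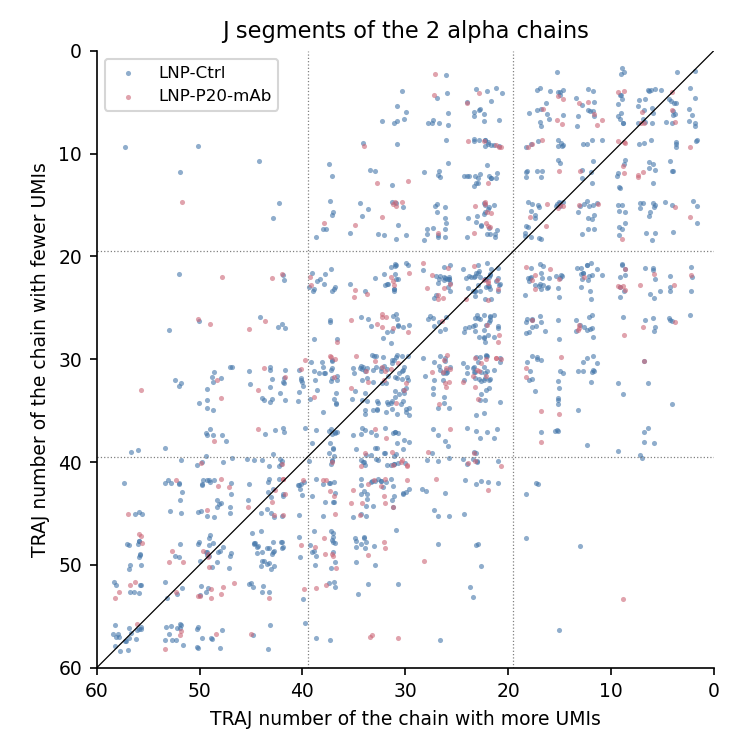
TRAJ number of the chain with more UMIs (x axis) and of the chain with fewer (y axis) for each of the 1461 distinct pairs, with a small random offset for display; both axes run from the V side, blue is LNP-Ctrl, red LNP-P20-mAb, dotted lines separate the near, middle and far stretches and the line marks equal numbers. Points follow the diagonal, and the corners that join a near and a far J segment are almost empty.

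By size of the gap, the same TRAJ number occurred in 7.52% ± 3.67 of pairs within cells and 2.88% ± 0.147 between cells (SD, n = 6). Within cells it was 10.4% and 13.5% in LNP-P20-mAb 1 and 2, which share clones, and 3.85% to 6.25% in the other libraries. Gaps of 1 to 5 made up 33.1% ± 2.54 against 17.7% ± 0.557, and gaps of 6 to 10 made up 29.0% ± 1.47 against 17.9% ± 0.811. Gaps of 21 to 30 fell to 4.94% ± 1.48 against 19.4% ± 0.304. Gaps of 31 or more were 0.781% ± 0.589 against 13.2% ± 1.38, or 13 of 1461 pairs.

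**Figure D3:**
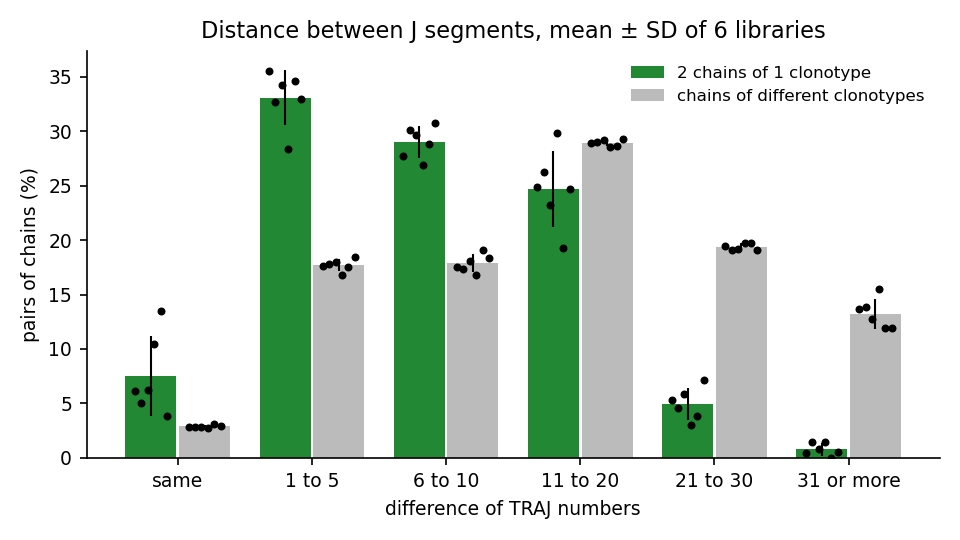
Share of pairs of alpha chains (%, y axis) by the difference of their TRAJ numbers (x axis), for the 2 chains of 1 clonotype (green) and for chains of different dual alpha clonotypes in the same library (grey); bars are means of 6 libraries, error bars SD and points libraries. Green exceeds grey up to a difference of 10, and every green point lies below every grey one from 21 on.

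The distance had no shared direction with the depth of the lower chain. In LNP-Ctrl 3, the library with most pairs, the mean distance was 9.15 where the lower chain averaged 1 to 2 UMIs per cell (105 pairs), 8.15 with 3 to 5 (252 pairs) and 8.86 with 6 or more (139 pairs). In the same order LNP-Ctrl 2 had 9.42, 8.24 and 8.91. The distance rose in LNP-Ctrl 1 (7.61, 7.67 and 8.53), LNP-P20-mAb 2 (4, 7.35 and 7.61) and LNP-P20-mAb 3 (7.88, 8.96 and 9.49). It fell in LNP-P20-mAb 1 (11.3, 8.77 and 7.92). In these 4 libraries the shallowest class held 4 to 18 pairs. Pairs present in 1 cell gave a within-minus-between difference of -7.98, and pairs in 2 or more cells -7.02 (exact sign-flip permutation p = 0.03125 for each, n = 6).

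Barcodes with 2 TRA and 2 TRB chains were the closest comparison, since they also hold 2 alpha chains. Their alpha chains differed by 14.9, 13.1 and 14.9 J positions in LNP-Ctrl 1 to 3 and by 12, 9.33 and 13.8 in LNP-P20-mAb 1 to 3, the last resting on 11, 6 and 22 pairs. These were closer than chains from different barcodes by 3.63 ± 1.69 positions (SD; all 6 libraries, exact sign-flip permutation p = 0.03125). The value of the dual alpha cells minus that of these barcodes was -4.25 ± 1.20 positions, negative in 6 of 6 libraries (exact sign-flip permutation p = 0.03125, adjusted 0.133). In every library the J segments of barcodes with 1 beta chain were the closer ones.

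V segments were also closer within pairs, by a smaller part of their range. TRAV segments were ranked by their order on mouse chromosome 14 in the RefSeq annotation, which placed all 88 TRAV names in the files among 130 ranks. The mean difference in rank within pairs was 26.2, 33.1 and 33.8 in LNP-Ctrl 1 to 3 and 33.6, 34.3 and 30.5 in LNP-P20-mAb 1 to 3. Between pairs it was 36.4 to 39.03, above every within-pair value. The difference was -5.73 ± 2.61 ranks (SD, n = 6; exact sign-flip permutation p = 0.03125, adjusted 0.133), and LNP-Ctrl 1 had the lowest within-pair value. Since the mouse TRAV cluster holds duplicated blocks with near-identical members, a rank can be wrong where a read matches several copies.

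Considered chain by chain, the chains of dual pairs sat at nearly the same positions as those of single alpha clonotypes. The mean TRAJ number was 29.3 ± 0.581 against 30.04 ± 0.508 (SD, n = 6; lower in 5 of 6 libraries, LNP-P20-mAb 1 being the exception; exact sign-flip permutation p = 0.09375). The mean TRAV rank was 74.1 ± 1.75 against 75.01 ± 0.637 (exact sign-flip permutation p = 0.21875). Within dual pairs, the chain with more UMIs had a mean TRAJ number of 29.0 ± 1.03 and the other 29.6 ± 0.619 (lower in 5 of 6 libraries; exact sign-flip permutation p = 0.09375).

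Segment usage differed for 6 of 155 V and J segments tested (edgeR quasi-likelihood test on distinct clonotypes with library as a block, Benjamini-Hochberg adjusted p below 0.05; 3.87% of all tested), 3 higher (1.94%) and 3 lower (1.94%) in dual pairs. No TRBV or TRBJ segment was among them (22 and 12 tested). The median log2 difference over all segments was -0.05. With TMM scaling the split was 2 higher and 7 lower, with the median of all segments at -0.19, and DESeq2 called 1 in each direction.

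TRAV16, a V segment near the J side of the V cluster, was the most clearly lower. It made up 2.04%, 1.07% and 0.706% of dual-pair chains in LNP-Ctrl 1 to 3 and 0.746%, 1.92% and 1.92% in LNP-P20-mAb 1 to 3. Among single alpha clonotypes it was 3.47%, 2.81% and 2.43%, and 4.64%, 3.45% and 3.67%, so all 6 dual values lay below all 6 single values. The log2 difference was -1.28 ± 0.22 (SE; edgeR adjusted p = 2.84e-06). Its near-identical copies TRAV16N and TRAV16D-DV11 had log2 differences of -0.17 ± 0.17 and -0.29 ± 0.28 (SE; edgeR adjusted p = 0.697 and 0.667), and reads of the 3 copies may have been split. TRAV16 chains also carried few UMIs: in single alpha cells their median was below that of all TRA chains in 6 of 6 libraries (mean of the medians 4.83 against 7.33). Within dual pairs TRAV16 was the lower chain 25 times, the higher 5 times and tied 6 times, and TRAV16N was the lower 56 and the higher 21 times. The part of UMI depth in its lower usage was not tested.

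TRAJ35 was the segment with the largest rise. It made up 1.63%, 1.31% and 1.51% of dual-pair chains in LNP-Ctrl 1 to 3 and 1.49%, 0% and 2.20% in LNP-P20-mAb 1 to 3, against 0.386%, 0.748%, 0.240%, 0.202%, 0.287% and 0.768% of single alpha chains in the same order. It was higher in 5 of 6 libraries, and LNP-P20-mAb 2 had none in its 52 pairs. The log2 difference was 1.64 ± 0.36 (SE; edgeR adjusted p = 0.000375). In dual pairs TRAJ35 sat on the lower chain 21 times, on the higher 19 times and tied 4 times. TRAJ35 and TRAV16 were the segments that DESeq2 called too.

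The remaining 4 calls were smaller, and each was lost under several alternatives. TRAV7-5 rose by 0.92 ± 0.22 and TRAJ42 by 0.63 ± 0.18 on the log2 scale (SE; edgeR adjusted p = 0.0014 and 0.0181). TRAJ49 fell by 0.71 ± 0.17 and TRAV9N-3 fell by 0.70 ± 0.20 (SE; edgeR adjusted p = 0.00236 and 0.0181). TRAJ42 was higher in 6 of 6 libraries and the others went their way in 5 of 6. TRAV7-5 was no longer called without LNP-Ctrl 3 (log2 0.63, edgeR adjusted p = 0.239), nor TRAJ49 without LNP-P20-mAb 3 (-0.60, edgeR adjusted p = 0.0509). TRAV9N-3 was lost without LNP-Ctrl 2, LNP-Ctrl 3 or LNP-P20-mAb 3, and TRAJ42 without any of LNP-Ctrl 2, LNP-Ctrl 3, LNP-P20-mAb 1 and LNP-P20-mAb 3. TRAV7-5 had a median UMI count in single alpha cells above that of all TRA chains in 6 of 6 libraries, and in dual pairs it was the higher chain 41 times and the lower 30 times. The other segments called higher, TRAJ35 and TRAJ42, were below that median in 5 libraries each and above it in 0 (means of the medians 5.92 and 6.25). Of those called lower, TRAJ49 was below it in 5 libraries and TRAV9N-3 in 4, and neither was above it in any. With a lower chain of 3 or more UMIs required, TRAV7-5 and TRAJ49 were still called, while TRAJ42 and TRAV9N-3 were not and TRAV6N-7 was added. The part of UMI depth in the 6 calls was not tested.

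Among segments that did not pass, TRAV4-2 and TRAV6N-5 had the highest TRAV estimates (log2 1.41 ± 0.61 and 1.29 ± 0.57, SE), and TRAV2 and TRAV6D-4 the lowest (-1.38 ± 0.73 and -1.36 ± 0.85). TRAJ2 stood at 0.85 ± 0.41 and TRAJ58 at -0.72 ± 0.35. Of the 4 tested segments of the V group nearest the J cluster (TRAV16 to TRAV21), 1 was called lower, and their median was -0.31. By stretch of the J cluster, 1 of 14 near segments was called higher and 1 lower (median -0.23), 1 of 16 middle segments higher (median 0.11), and 0 of 13 far segments (median 0.22).

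**Figure D4:**
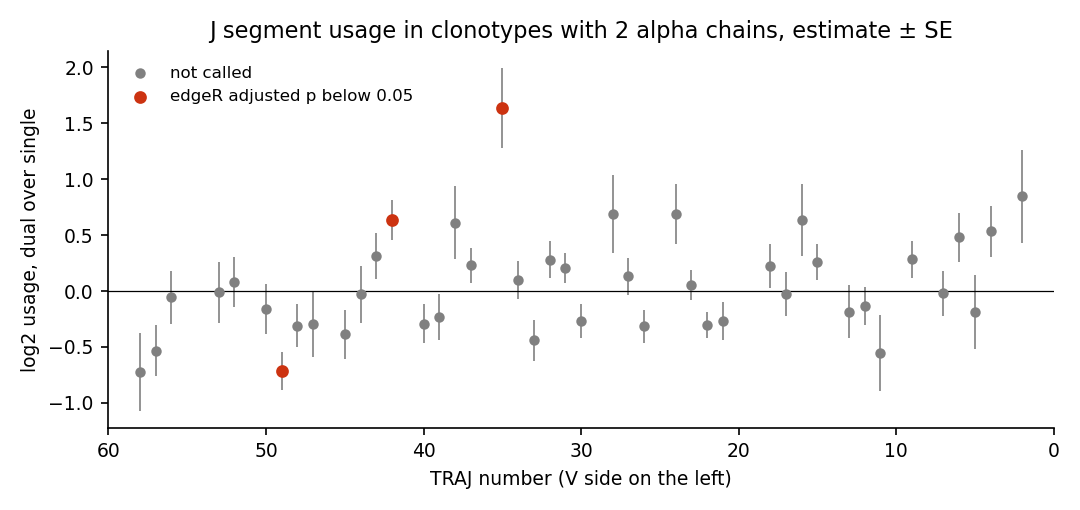
Log2 ratio of TRAJ usage in dual pairs over single alpha clonotypes (y axis, estimate ± SE from edgeR) by TRAJ number (x axis, V side on the left); red points passed an adjusted p below 0.05. TRAJ35 at 1.64 is the highest, and TRAJ58 and TRAJ49 the lowest.

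Between treatments, dual pairs differed in 1 of 109 segments (edgeR adjusted p below 0.05; 0.917% of those tested). That segment was TRBV3, a beta segment, with 6.12%, 8.11% and 8.87% of dual clonotypes in LNP-Ctrl 1 to 3 and 2.99%, 1.92% and 1.10% in LNP-P20-mAb 1 to 3. The groups did not overlap, and the log2 difference was -2.23 ± 0.51 (SE; edgeR adjusted p = 0.0121). Single alpha clonotypes had the same order, at 7.78%, 9.91% and 9.38% against 4.23%, 3.45% and 1.28%, and no test of a difference between the classes was made. The call was lost without LNP-P20-mAb 3 (log2 -1.65, edgeR adjusted p = 0.417), LNP-P20-mAb 2 or LNP-Ctrl 3, and with DESeq2. TRBV3 is also the beta segment of the largest dual alpha clone of LNP-P20-mAb 3, which counts once here.

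No alpha segment passed by treatment. The highest estimates for LNP-P20-mAb over LNP-Ctrl were TRAV12-1 and TRAV10 (log2 0.94 ± 0.45 and 0.93 ± 0.45, SE) and TRAJ53 and TRAJ30 (0.87 ± 0.47 and 0.56 ± 0.33). The lowest were TRAV14N-3 and TRAV7-5 (-1.47 ± 0.59 and -1.30 ± 0.53) and TRAJ6 and TRAJ12 (-1.55 ± 0.61 and -1.25 ± 0.47). All had edgeR adjusted p of 0.252 or more.

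Pairs of alpha chains recurred within clones. Of the 1461 pairs, 120 were present together in 2 or more cells of a library, and these 120 held 1152 of the 2493 dual alpha cells (46.2%). Their share of dual alpha cells was 39.1%, 22.8% and 9.06% in LNP-Ctrl 1 to 3 and 80.7%, 75.5% and 76.3% in LNP-P20-mAb 1 to 3. Over all dual and single alpha cells, clonotypes of 1 cell held 1647 of 3333, 2901 of 3923 and 3294 of 3737 in LNP-Ctrl. In LNP-P20-mAb they held 456 of 3263, 306 of 2016 and 1180 of 2843. Repeated clonotypes were thus more common with LNP-P20-mAb among all cells too, and the recurrence of pairs was not tested against this. The beta chain of 1 of the 120 clones, with either of its alpha chains, was carried by 1479 cells. Of these, 77.9% had both, 17.3% only the chain with more UMIs and 4.80% only the other. In 72 of the 120 clones every such cell had both chains. The 120 were chosen for 2 or more cells with both chains, so these shares are in part built in. A clone seen in only 2 cells has both chains in every cell by that choice. In 11 of the 120, both chains used the same TRAJ number.

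The largest was in LNP-P20-mAb 3: 325 of 414 cells with TRBV3 and the beta CDR3 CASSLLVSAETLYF carried both TRAV7D-2/TRAJ17 and TRAV4-2/TRAJ35. In the same library, 107 of 114 cells with TRBV20 and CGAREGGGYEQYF carried TRAV7-3/TRAJ7 with TRAV7N-6/TRAJ23. These 2 clones held most of the 678 dual alpha cells of that library. In LNP-Ctrl 1, the TRBV10 clone with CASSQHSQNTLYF had both chains in 69 of the 70 cells with either. The TRBV12-1 clone with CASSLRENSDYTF had both in 115 of 191 cells in LNP-P20-mAb 1 and in 60 of 97 in LNP-P20-mAb 2. Completeness thus ranged from 60.2% to 98.6% among these 5 entries. In the TRBV3 clone, cells with both chains had a median of 17 TRA UMIs, cells with only the higher chain 10 and cells with only the lower chain 3.5. In the TRBV12-1 clone of LNP-P20-mAb 1 these medians were 12, 5 and 6.

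**Figure D5:**
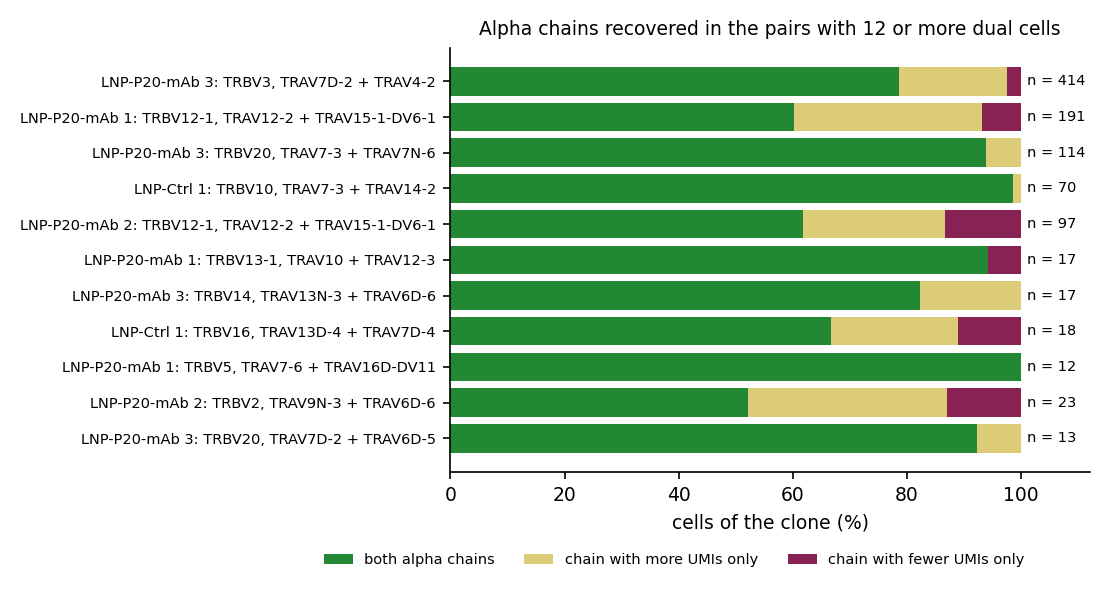
Share of cells (%, x axis) with both alpha chains (green), only the chain with more UMIs (yellow) or only the chain with fewer (purple), among cells with the beta chain and either alpha chain, for the 11 pairs with 12 or more dual alpha cells (y axis, library, beta V segment and both alpha V segments). Both chains were found in 52.2% to 100% of cells.

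Large clonotypes either had the second chain in most of their cells or lacked it. Of 78 clonotypes with 20 or more cells, 71 contained no dual alpha cell among 5187 cells in all, the largest of them having 468 cells, and 1 had a dual share above 0 and below 10%. In 6 clonotypes the share was 50% or more, and none lay between. Clonotypes were counted per library, so a clone shared by LNP-P20-mAb 1 and 2, which held 25 and 19 of the 78, counts in each. The TRBV12-1 clone with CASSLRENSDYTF is among the 6 in both, so the split rests on fewer than 78 separate clones. The cut at 20 cells was chosen after seeing the data. LNP-Ctrl 2 and 3 had 9 and 2 such clonotypes, none with a dual alpha cell. The share of dual alpha cells was lower in clonotypes of 3 or more cells than in clonotypes of 1 cell in 5 of 6 libraries: 8.02%, 11.2% and 11.7% against 13.3%, 13.0% and 14.5% in LNP-Ctrl, and 7.71% and 6.95% against 10.3% and 11.8% in LNP-P20-mAb 1 and 2. LNP-P20-mAb 3 went the other way, with 33.3% against 13.0%. The mean difference was 0.498 ± 9.81 percentage points (SD, n = 6; exact sign-flip permutation p = 1), and without LNP-P20-mAb 3 it was -3.47 (exact sign-flip permutation p = 0.0625, the smallest with 5 libraries).

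The same chain tended to lead in UMIs across the cells of a clone. In 31 of the 40 clones with 5 or more dual alpha cells, the chain that led in total led in over 50% of cells, and the median clone had it leading in 80% of cells. LNP-Ctrl 3 showed no such lead, with 0 of its 3 such clones above 50% and a median of 45.5%. Tied cells count as not led. In the other libraries 6 of 7, 5 of 6, 9 of 11, 5 of 5 and 6 of 8 clones were above 50%. In the TRBV3 clone it led in 267 of 325 cells with 23 ties. In the TRBV13-1 clone with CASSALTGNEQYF of LNP-P20-mAb 1 it led in 6 of 16 with 2 ties. Between the cells of a clone the log2 ratio had a pooled SD of 0.81, larger than the SD of 0.40 between the mean ratios of the 40 clones. The leading chain is named from the same cells, so a lead above 50% is in part built in.

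Some of the same clones could be followed in both LNP-P20-mAb 1 and 2. These libraries may not be independent samples, so recurrence between them may be a technical repeat. Of the 1444 distinct pairs in all, 17 occurred in more than 1 library, and all 17 were in these 2. Of the 16 recurrent pairs of LNP-P20-mAb 1, 13 had their beta chain with either alpha chain in LNP-P20-mAb 2, 12 as a pair, in 106 of 159 cells (66.7%). In the other direction 13 of 14 recurrent pairs were found as a pair, in 194 of 290 cells (66.9%). Over the 11 pairs with 2 or more dual alpha cells in both, the same chain led in 9, and the mean log2 ratios had a Pearson r of 0.61 between the libraries, as a description over clones that share segments and chemistry.

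Most pairs were seen once. Of 1341 pairs in a single cell, 1301 had a beta chain found in no other cell of the library with 1 or 2 TRA and 1 TRB chain, so their recurrence could not be examined. Of these single-cell pairs, 31 had sister cells with the same beta chain and 1 of the alpha chains, 181 cells in all that lacked the pair.

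The CDR3 loops of dual and single alpha chains were alike in length. Mean length was 13.7 ± 0.0473 residues in dual pairs and 13.7 ± 0.0488 in single alpha clonotypes (SD, n = 6; difference -0.0063 ± 0.0517; exact sign-flip permutation p = 0.96875). Dual pairs had 2.64 ± 0.114 junction bases and single alpha clonotypes 2.49 ± 0.0621 (higher in 5 of 6 libraries; exact sign-flip permutation p = 0.0625). With a stricter consensus, an alternative chosen after seeing the data, that difference was 0.21 bases (exact sign-flip permutation p = 0.03125). Leaving out segments with under 100 distinct CDR3s, also chosen after seeing the data, did not strengthen it past a p of 0.05 in that test. Net charge was 0.526 ± 0.105 against 0.492 ± 0.0571, and mean Kyte-Doolittle hydropathy of the loop centre -1.22 ± 0.0262 against -1.21 ± 0.0355 (exact sign-flip permutation p = 0.25 and 0.8125).

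Within dual pairs, the chain with more UMIs had a CDR3 of 13.6 ± 0.0671 residues and the other 13.8 ± 0.119 (SD, n = 6; shorter in 5 of 6 libraries, with LNP-P20-mAb 2 the exception; exact sign-flip permutation p = 0.0625, adjusted 0.177). Junction bases, charge and hydropathy of the higher and lower chains differed by less than the spread between libraries (exact sign-flip permutation p = 0.6875, 0.25 and 1). With cells as units in place of clonotypes, the higher-minus-lower difference in length was 0.0014 residues (exact sign-flip permutation p = 1) against -0.197, and that in charge was 0.238 (exact sign-flip permutation p = 0.03125) against 0.0746. Large clones weigh most in cell units: 1 clone held 325 of the 678 dual alpha cells of LNP-P20-mAb 3. The p-values in cell units take LNP-P20-mAb 1 and 2, which share clones, as separate, and were not repeated with these averaged. The lower chain recurred with another beta chain in the same library in 2.25% ± 1.29 of pairs and the higher chain in 2.71% ± 1.78 (exact sign-flip permutation p = 0.625), and single alpha chains did so in 0.575% to 3.74% by library.

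Chains of invariant T cells were rare among both dual and single alpha cells. A TRAV11 or TRAV11D chain with TRAJ18, as in invariant natural killer T cells, was present in 6 of 2493 dual alpha cells and 50 of 16622 single alpha cells. The TRAV1/TRAJ33 chain of mucosal-associated invariant T cells was present in 1 and 16.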

How the data were processed

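The 6 receptor libraries were assigned to treatments by their titles. The other 6 samples, of gene expression, were not used here. Per the submitters' processing notes, Cell Ranger 8.0.1 was used. The authors deposited raw counts of reads and UMIs for each assembled chain, and every chain was flagged as productive, full length, high confidence and from a called cell. Coordinates are left out because the notes list several mouse builds with no role. Chains or cells removed before deposit leave no trace, and a second chain below the calling limits counts here as absent.

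Chains repeated on a barcode (11) were dropped and barcodes sorted by their TRA and TRB chains. Chain properties were averaged over distinct clonotypes, so that a large clone counts once. Distances between cells were averaged over all pairs of chains from different clonotypes. Within-library differences were tested by exact sign-flip permutation (64 flips of 6 libraries), treatments by exact permutation (20 assignments), all two-sided, with Benjamini-Hochberg adjustment over 17 and 7 tests. Segment counts of clonotypes with 30 or more chains were tested with edgeR 4.0.16 in R 4.3.3 (quasi-likelihood, library size per locus), with DESeq2 1.42.0 as an alternative. Junction bases were those left after matching the consensus of chains with the same V or J segment (at least 8 sequences and 9 bases). Python 3.11.15, numpy 2.4.6, pandas 2.3.3 and scipy 1.17.1 were used.

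The procedures were tested on simulated data. In 20 simulated sets of the 155 segments of the dual against single comparison, 77% of segments changed 2-fold and 94% of those changed 4-fold passed edgeR's test, as did 0.68% of segments left as they were. In the treatment comparison (109 segments) the shares were 31.7%, 78% and 0.886%. Each set had 30 changed segments, and counts were drawn independently around 1 pooled usage per segment. Differences in usage between libraries, linked J segments within pairs and shared clones were not simulated, so the shares may differ in the real data. Named segments were all those past an adjusted p of 0.05 and the 2 highest and 2 lowest TRAV and TRAJ estimates. The cells and lists were chosen with earlier results of these data known. The labels do not tie libraries to animals, so the p-values cover library-to-library spread only, part of which may be technical. Depth was 85835 to 145847 TRA and TRB UMIs per library.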

Additional observations from a re-analysis of the deposited data

How the results depend on the processing

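The closeness of J segments, of J segments in barcodes with 2 TRA and 2 TRB chains, the difference between these, and the closeness of V segments kept their sign under every alternative run. With LNP-P20-mAb 1 and 2 averaged into 1 sample they were -7.73, -3.22, -4.51 and -5.88, each with an exact permutation p of 0.0625, the smallest for 5 samples. With cells as units in place of clonotypes the first was -6.37 (p = 0.0625, exact) and the last -5.67 (p = 0.15625, exact). Leaving out 1 library at a time gave -8.14 to -7.71, -3.89 to -3.05, -4.65 to -3.97 and -6.14 to -4.72, again with 5 libraries at most.

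Values near 0 changed sign. Averaging LNP-P20-mAb 1 and 2 turned dual-minus-single CDR3 length to 0.00074 and hydropathy to 0.0063, higher-minus-lower hydropathy to 0.0023, and the treatment difference at 5 TRA UMIs to 1.21 percentage points. With cells as units, dual-minus-single length was 0.464 residues and charge -0.126, and higher-minus-lower length was 0.0014, junction -0.162 bases and hydropathy 0.161. Higher-minus-lower charge kept its sign there and rose from 0.0746 to 0.238 (p = 0.03125, exact, with LNP-P20-mAb 1 and 2 taken as separate). A lower chain of 3 or more UMIs turned higher-minus-lower hydropathy to 0.0029. The stricter consensus (20 sequences) raised dual-minus-single junction bases to 0.21 (p = 0.03125, exact). Leaving out segments with under 100 distinct CDR3s did not strengthen that difference past a p of 0.05 in the same test. The dual share in clonotypes of 20 or more cells minus that in single-cell clonotypes was -2.10 percentage points. By treatment the dual share differed by -1.15 over clonotypes and -0.531 without clonotypes of 20 or more cells, and the log2 UMI ratio by -0.046 over clonotypes. The causes were not tested.

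Leaving out 1 library at a time, expanded minus single-cell dual share ran from -3.47 to 1.65, dual share by treatment from -4.75 to 3.33, at 5 TRA UMIs from -7.50 to 1.43 and log2 UMI ratio from 0.01 to 0.09. Dual-minus-single ranges were -1.01 to -0.56 for TRAJ number, -1.31 to -0.43 for TRAV rank, -0.013 to 0.014 for length, 0.123 to 0.189 for junction bases, 0.018 to 0.059 for charge and -0.014 to 0.0073 for hydropathy. Higher-minus-lower ranges were -0.742 to -0.424 for TRAJ number, -0.244 to -0.167 for length, -0.024 to 0.105 for junction bases, 0.019 to 0.099 for charge and -0.025 to 0.029 for hydropathy, and lower minus higher was -0.958 to 0.063 for recurrence with another beta chain.

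Segments called between dual and single alpha clonotypes numbered 6, against 2 with DESeq2, 2 without the library block and 11 with a minimum of 10 chains or no filter, and 3 to 8 with 1 library left out. By treatment 1 was called, against 0 with DESeq2 (6 at unadjusted p below 0.05) and 0 to 2 with 1 library left out. Of 286 values of named segments under alternatives, 262 kept their sign and side of the threshold and 24 kept their sign but lost the call. Most named segments were not called in the main run, and for these a kept side means only that they stayed uncalled. All 24 losses fell on called segments: 8 on TRAJ42, 6 on TRAV9N-3, 4 on TRBV3, and 3 each on TRAV7-5 and TRAJ49. TRAJ35 and TRAV16 kept the call in all 14 alternatives.

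The replicate numbers shared by the treatments did not pair the libraries (correlations of deviations -0.04, -0.13 and -0.01). With the replicate block the treatment differences were 0.573 percentage points in dual share, -1.70 at 5 TRA UMIs and 0.05 in log2 UMI ratio, and 1 segment was called, as without it. Few UMIs limit the detection of a second chain, and 52 to 496 pairs per library limit the precision of every mean.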
